A study of Homo sapiens with 6 samples.

Results

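Transcripts of 9 genes of antigen presentation by MHC class I and of the PD-L1 checkpoint were followed in T98G, a human glioblastoma cell line, after a short hairpin RNA against SLC1A5. The 9 genes, of 35750 listed, were chosen by name for their roles, with earlier results of these data known. They were HLA-B, HLA-C, HLA-E, B2M, TAP1, TAP2, TAPBP, NLRC5 and CD274. All 9 were expressed above the minimum for testing, a mean of 1 FPKM (fragments scaled by gene length and by library size) over the 6 libraries. Poly(A) RNA was sequenced from 3 libraries labelled shControl and 3 labelled shSLC1A5, all from T98G cells kept in medium with serum, and the series asks what depletion of SLC1A5, a glutamine transporter, does to gene expression. The labels name neither the hairpin's sequence nor its vector, the time after its delivery or any clone. Nor do they say that the libraries are separate cultures, so the p-values below cover library-to-library spread alone, which could be technical. In bulk RNA, a lower level in every cell and fewer cells with the transcript cannot be told apart.

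MHC class I molecules show fragments of the cell's own proteins to CD8+ T cells. A heavy chain (HLA-B, HLA-C, HLA-E and others) pairs with the light chain B2M in the endoplasmic reticulum, TAP1 and TAP2 together pump peptides in from the cytosol, and TAPBP (tapasin) holds the empty heavy chain at that pump while peptides are exchanged. NLRC5 is the transactivator that drives class I genes, and CD274 encodes PD-L1, a ligand that restrains T cells through PD-1. Interferons raise all of these genes in many cell types, and glioma cells can use low class I or high PD-L1 to avoid T cells.

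The stretches of promoter where class I and PD-L1 genes carry the motifs of these signals are shown for the 5 genes whose results are compared most closely below. RefSeq promoters on GRCh38.p14 (250 bases before to 50 bases after the start) were matched for 7 of the 9 genes; HLA-E and NLRC5 are named only. Capitals mark matches, on either strand, to the interferon response element GAAANNGAA, the same element read with another spacing as GAANNGAAA (added after the sequences were seen), the STAT site TTCNNNGAA, the NF-kB site GGGNNTTCC, the box CCAAT and TGACG, the core of the cyclic AMP response element. Adjoining or overlapping matches run together, and each sequence reads 5′ to 3′ on the gene's own strand.
HLA-B, chr6:31357223-31357386, minus strand: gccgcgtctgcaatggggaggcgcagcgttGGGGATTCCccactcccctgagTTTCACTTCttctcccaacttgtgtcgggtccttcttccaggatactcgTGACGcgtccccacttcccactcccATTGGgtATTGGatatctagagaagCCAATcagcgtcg
HLA-C, chr6:31272136-31272273, minus strand: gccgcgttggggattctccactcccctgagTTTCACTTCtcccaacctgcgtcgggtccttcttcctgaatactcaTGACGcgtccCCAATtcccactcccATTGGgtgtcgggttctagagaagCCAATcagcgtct
B2M, chr15:44711343-44711480, plus strand: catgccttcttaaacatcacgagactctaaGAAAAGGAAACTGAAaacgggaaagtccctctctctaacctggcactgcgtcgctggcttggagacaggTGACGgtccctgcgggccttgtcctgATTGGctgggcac
TAPBP, chr6:33314079-33314163, minus strand: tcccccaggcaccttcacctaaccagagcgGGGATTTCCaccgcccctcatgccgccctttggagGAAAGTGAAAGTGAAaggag
CD274, chr9:5450305-5450433, plus strand: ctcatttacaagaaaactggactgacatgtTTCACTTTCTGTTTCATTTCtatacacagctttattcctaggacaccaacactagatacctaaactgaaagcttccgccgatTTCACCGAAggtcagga

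HLA-B and HLA-C, neighbours in the genome with closely related promoters, both held the cyclic AMP core, CCAAT boxes and the interferon element in its second spacing. HLA-B held an NF-kB match, GGGGATTCC, at positions -177 to -169 from the start. The matching stretch of HLA-C, GGGGATTCT, differed by 1 base, C9T counted from the first base of the match, and held no match. TAPBP also held the NF-kB site, as did B2M at positions -4 to 4, outside the stretch shown. B2M, TAP1 and TAPBP each held a pair of overlapping interferon elements, TAP2 a pair of 1 in each spacing, and CD274 a pair and 1 in the second spacing. CD274 alone of the 7 held the STAT site. Among 35116 RefSeq promoters, 8.11% held GAAANNGAA, 7.66% GAANNGAAA, 7.66% the STAT site, 6.58% the NF-kB site, 34.6% the CCAAT box and 24.6% the cyclic AMP core. These are matches of letters and not measured binding.

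Before any direction was drawn, SLC1A5 itself was read in every library. It stood at 95.01, 95.26 and 97.12 FPKM in shControl and at 87.48, 88.02 and 88.28 FPKM in shSLC1A5. The groups did not overlap, but the transcript fell by only 8.90% (95% confidence interval of the change -11.4% to -6.33%), with an edgeR log2 fold change of -0.13 (SE 0.018, quasi-likelihood adjusted p = 0.00021). It was -0.34 with the GC and length offsets described next. Every difference below is therefore between libraries labelled shSLC1A5 and libraries labelled shControl.

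Total counts were 59327548 to 63420773 in shControl and 66998312 to 70802167 in shSLC1A5. Of 11841 genes tested, 39.2% differed at an adjusted p under 0.05 in edgeR, 20.5% higher and 18.7% lower in shSLC1A5, and their median absolute log2 fold change was 0.23. Genes of GC-rich transcripts had higher fold changes (across genes, which are no independent replicates, Spearman's rho was 0.49). The 9 genes are therefore also given from a fit with GC content and length as offsets, in which 26.3% of genes were called. Of glioma markers, VIM stood at 391.3 ± 5.72 FPKM and CD44 at 209.6 ± 0.299 FPKM in shControl (SD, n = 3), and GFAP was low, with 0.00940 to 0.0327 FPKM in all 6 libraries, as was SOX2, at most 0.0580 FPKM.

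The class I and PD-L1 transcripts differed little between the groups. HLA-C, HLA-E, TAPBP and NLRC5 were higher in shSLC1A5 by 9.31% to 11.6%, B2M fell by 3.44% and CD274 fell by 17.8%, and HLA-B, TAP1 and TAP2 did not pass the test. With the GC and length offsets HLA-C turned to lower, NLRC5 and B2M changed sign without passing, and HLA-E, TAPBP and CD274 kept their sign without passing. Of the 9 genes, 6 were called, beside 39.2% of all genes tested, 4 higher and 2 lower, beside 20.5% and 18.7%. With the offsets 2 were called, beside 26.3% of genes tested, 0 higher and 2 lower (HLA-B and HLA-C), beside 11.6% and 14.7%. The FPKM of the groups did not overlap for 8 of the 9, beside 49.6% of genes tested.

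**Figure D1:**
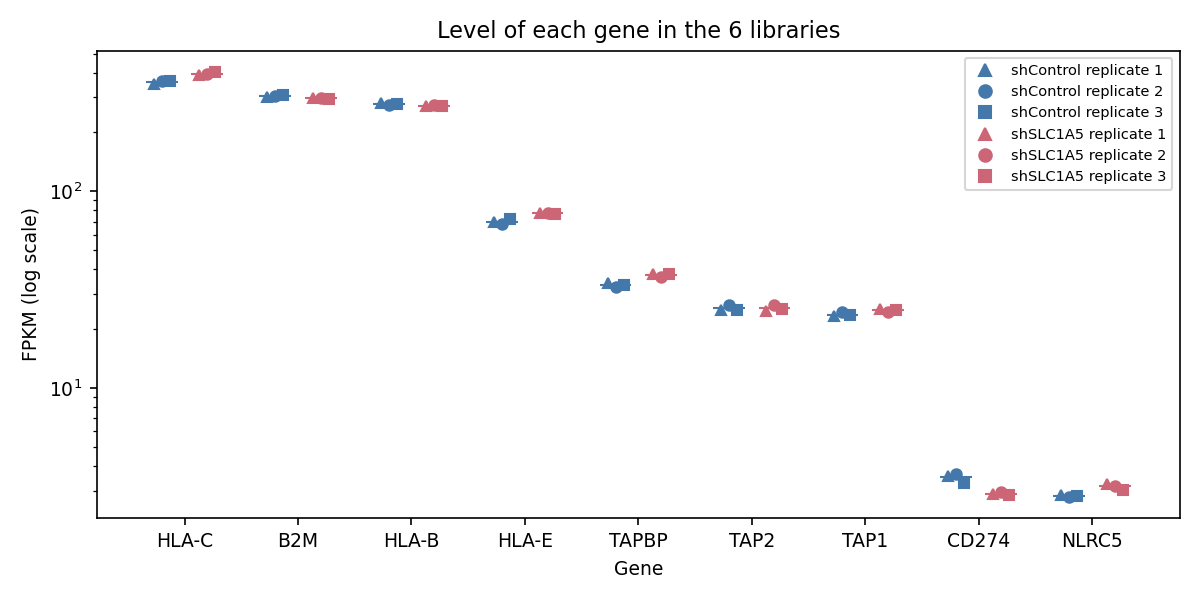
FPKM of the 9 genes (log scale) in each library, shControl and shSLC1A5 side by side, one point per library. Levels span from about 3 FPKM for NLRC5 and CD274 to over 350 FPKM for HLA-C, and the groups lie close together for every gene.

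In shControl the order of levels per length was HLA-C (360.1 FPKM), B2M (305.1), HLA-B (276.8), HLA-E (70.0), TAPBP (33.3), TAP2 (25.3), TAP1 (23.6), CD274 (3.50) and NLRC5 (2.82), as means over 3 libraries. No 2 neighbours in that order overlapped between libraries. Only 0.456% of tested genes lay above HLA-C and 0.701% above HLA-B, while 67.5% lay above CD274 and 73.7% above NLRC5. In shSLC1A5 the first 7 kept their order, TAP1 and TAP2 overlapped, and NLRC5 (3.15 FPKM) stood above CD274 (2.90 FPKM) without overlap.

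Among the heavy chains, HLA-C was the highest and HLA-C and HLA-E were the ones called higher. HLA-C presents peptides to T cells and is also the main class I ligand of inhibitory receptors on natural killer cells. Its FPKM was 352.7, 363.4 and 364.2 in shControl and 391.6, 393.9 and 404.1 in shSLC1A5. All 3 shSLC1A5 libraries lay above all 3 shControl libraries. In edgeR, HLA-C was higher at a log2 fold change of 0.13 (SE 0.018, adjusted p = 0.00022), but -0.09 (adjusted p = 0.00591) with the GC and length offsets, a call in the other direction. The HLA-C transcript has a GC content of 62.7%, and the median log2 fold change of the 485 tested genes between 62.5% and 65% GC was 0.28.

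HLA-E, which presents leader peptides of other class I chains to natural killer receptors, was at 70.1, 67.9 and 72.1 FPKM in shControl and at 77.1, 77.8 and 76.7 FPKM in shSLC1A5. The groups did not overlap, and the shSLC1A5 libraries lay closer together than the shControl libraries. HLA-E differed by a log2 fold change of 0.13 (SE 0.025, adjusted p = 0.00188 in edgeR). With the offsets it was 0.07 (adjusted p = 0.0536), on the other side of the threshold.

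HLA-B, the most polymorphic of the classical heavy chains, was at 279.6, 273.4 and 277.5 FPKM in shControl and 270.7, 273.1 and 272.6 FPKM in shSLC1A5. The highest shSLC1A5 library lay just under the lowest shControl library. The log2 fold change of -0.04 (SE 0.016) did not pass (adjusted p = 0.111 in edgeR), and the 95% confidence interval of the change ran from -4.87% to 0.0436%. Without shControl replicate 2 it passed at -0.05 (adjusted p = 0.0225), and with the offsets at -0.17 (adjusted p = 1.46e-05).

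The proportion of HLA-C to HLA-B was higher in every shSLC1A5 library. The FPKM ratio of HLA-C to HLA-B, examined after the values had been seen, was 1.26, 1.33 and 1.31 in shControl and 1.45, 1.44 and 1.48 in shSLC1A5, 12.01% higher (exact two-sided permutation p = 0.1, the smallest that 3 libraries against 3 allow). The GC content of HLA-B is 58.95%, below that of HLA-C, and with the offsets both were lower. The gene model of HLA-B, on chromosome 6 from 31269491 to 31357179, overlaps in part that of HLA-C, from 31268749 to 31272105, with 35 shared exon bases. The longest protein-coding reference transcripts of the pair had 0 stretches of 75 bases in common. How reads from the line's own alleles were divided between the genes was not tested.

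B2M, the light chain that every class I heavy chain needs to reach the surface, was slightly lower in shSLC1A5. It stood at 302.9, 304.6 and 307.8 FPKM in shControl and at 297.0, 298.9 and 294.5 FPKM in shSLC1A5, with no overlap. The difference was -0.05 on the log2 scale (SE 0.014, adjusted p = 0.0143 in edgeR), but 0.03 (adjusted p = 0.135) with the offsets and 0.06 (adjusted p = 0.116) with quantile normalization in limma. Nor did it pass among genes of at least 5 FPKM (adjusted p = 0.0773) or in limma on log2(FPKM + 1) or log2(FPKM + 0.1) (adjusted p = 0.294 and 0.316). B2M has a GC content of 40.6%, where the median log2 fold change of 1320 tested genes between 40% and 42.5% GC was -0.07.

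The ratio of summed HLA-B, HLA-C and HLA-E FPKM to B2M FPKM does not depend on scaling to depth. It was 2.32, 2.31 and 2.32 in shControl, a mean of 2.32 ± 0.00291, and 2.49, 2.49 and 2.56 in shSLC1A5, a mean of 2.51 ± 0.0390 (SD, n = 3). The ratio was 8.46% higher, with no overlap and the smallest exact permutation p the design allows, 0.1 (0.15 adjusted over 3 ratios). Such a ratio still carries the difference in GC content between its parts.

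**Figure D2:**
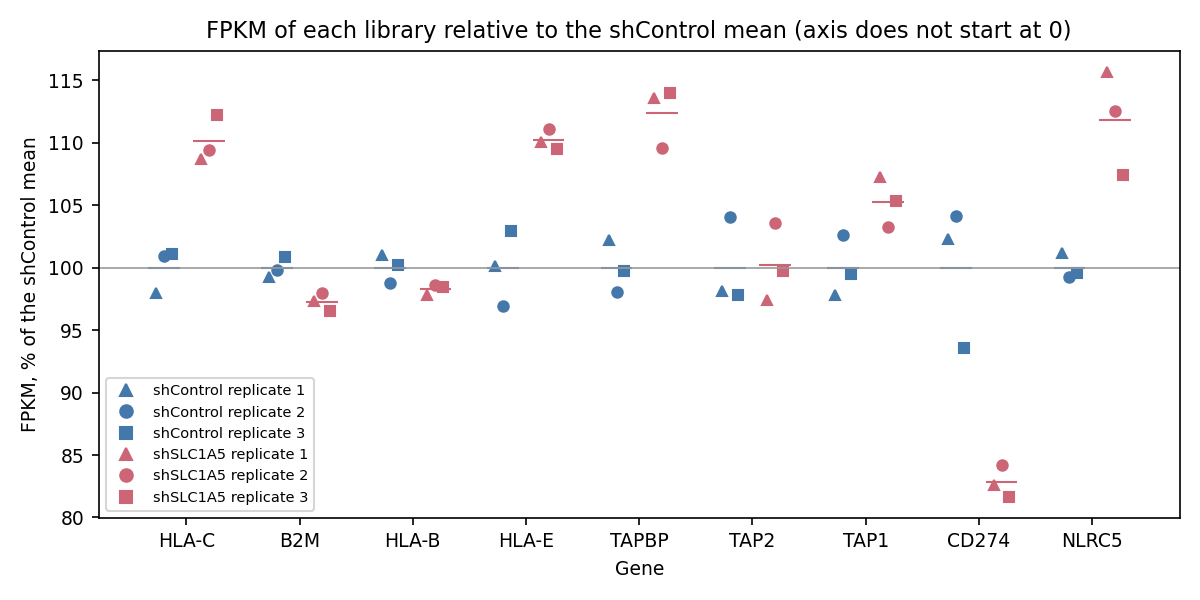
FPKM of each library as a percent of the mean of the shControl libraries of the same gene, one point per library. HLA-C, HLA-E, TAP1, TAPBP and NLRC5 lie above 100 in all shSLC1A5 libraries, B2M, HLA-B and CD274 below it, and TAP2 on both sides.

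Neither gene of the peptide pump passed the test. TAP1 was at 23.1, 24.2 and 23.5 FPKM in shControl and 25.3, 24.3 and 24.8 FPKM in shSLC1A5, without overlap by a narrow margin. Its log2 fold change of 0.06 (SE 0.031) did not pass (adjusted p = 0.126 in edgeR; -0.06 with the offsets, adjusted p = 0.155). TAP2 was at 24.9, 26.4 and 24.8 FPKM in shControl and 24.7, 26.2 and 25.3 FPKM in shSLC1A5, and these overlapped. Its log2 fold change was -0.01 (SE 0.030, adjusted p = 0.865; -0.01 with the offsets, adjusted p = 0.839), with a 95% confidence interval of the change from -5.04% to 4.19%.

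Per library, TAP1 to TAP2 came to an FPKM ratio of 0.931 ± 0.0149 for shControl against 0.978 ± 0.0487 for shSLC1A5 (SD, n = 3), with overlap (exact permutation p = 0.3). TAP1 exons overlap PSMB8-AS1 on the other strand over 9.49% of their bases. TAP2 exons overlap AL669918.1 on the same strand over 32.3%. Mean FPKM over the 6 libraries was 4.15 for PSMB8-AS1 and 0.397 for AL669918.1. The strand setting of the counting is not given in the sources used here, and no strand setting separates genes on the same strand. The share of reads belonging to each gene is therefore uncertain.

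TAPBP, the editor that links TAP to empty heavy chains, was at 34.1, 32.7 and 33.2 FPKM in shControl and at 37.9, 36.5 and 38.0 FPKM in shSLC1A5. The lowest shSLC1A5 library was above the highest shControl library. Its log2 fold change, 0.16 (SE 0.028, adjusted p = 0.00114 in edgeR), was 0.02 (adjusted p = 0.693) with the offsets. At 57.6% GC, TAPBP lies where the median log2 fold change of 847 tested genes (57.5% to 60% GC) was 0.15.

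NLRC5 was the lowest of the 9 in shControl, at 2.85, 2.80 and 2.81 FPKM, against 3.26, 3.17 and 3.03 FPKM in shSLC1A5. These rest on 2320 to 3241 counts per library. The groups did not overlap, and replicate 1 was the highest shSLC1A5 library. NLRC5 had an edgeR log2 fold change of 0.15 (SE 0.044, adjusted p = 0.0199), but -0.01 (adjusted p = 0.860) with the offsets. Without shSLC1A5 replicate 1 it was 0.12 and no longer passed (adjusted p = 0.0803). It also did not pass with quantile normalization in limma (0.12, adjusted p = 0.0685) or with no filter on low genes (0.14, adjusted p = 0.0681).

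CD274 had the largest difference of the 9. Its FPKM was 3.58, 3.64 and 3.27 in shControl and 2.89, 2.95 and 2.86 in shSLC1A5, from 884 to 1058 counts per library. The 3 shSLC1A5 libraries lay close together and under all shControl libraries. The transcript fell by 17.8% (95% confidence interval of the change -27.3% to -6.94%; log2 fold change -0.28, SE 0.081, adjusted p = 0.0177 in edgeR), and 19.5% of tested genes had a larger absolute log2 fold change. The sign held in every alternative that gave a value, but the call did not hold with the offsets (-0.21, adjusted p = 0.0860). It was also lost without shControl replicate 1 (adjusted p = 0.0565), shControl replicate 2 (adjusted p = 0.0605) or shSLC1A5 replicate 3 (adjusted p = 0.0574).

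**Figure D3:**
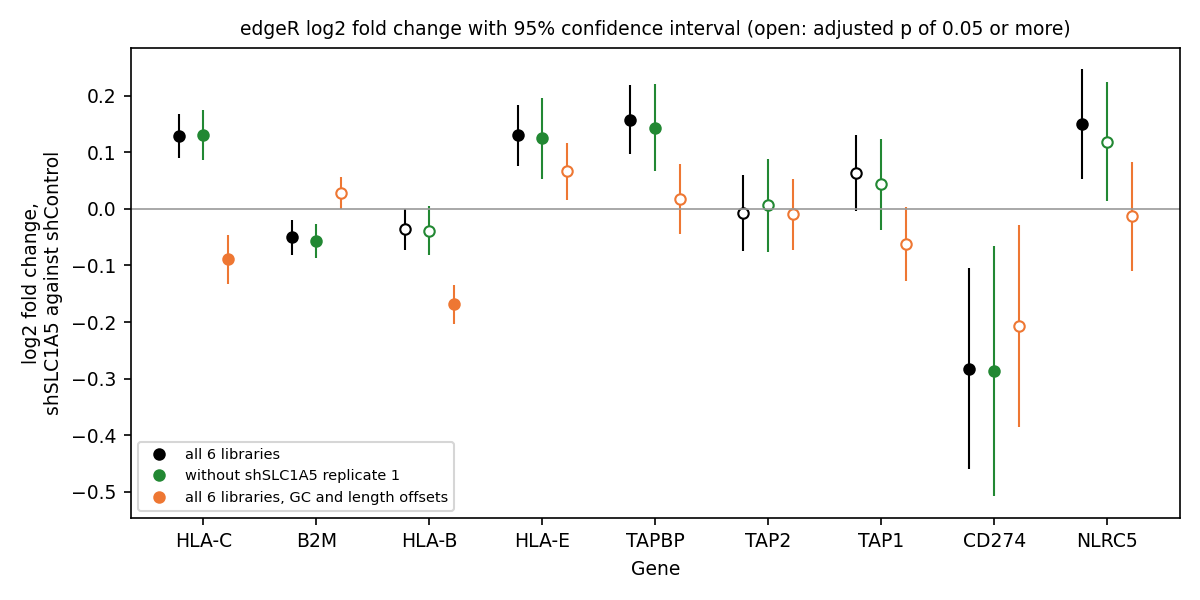
edgeR log2 fold changes with 95% confidence intervals for the 9 genes from all 6 libraries, without shSLC1A5 replicate 1, and with GC and length offsets. The first 2 lie close together for every gene, while the offsets move HLA-C from 0.13 to -0.09 and NLRC5 from 0.15 to -0.01.

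**Figure D4:**
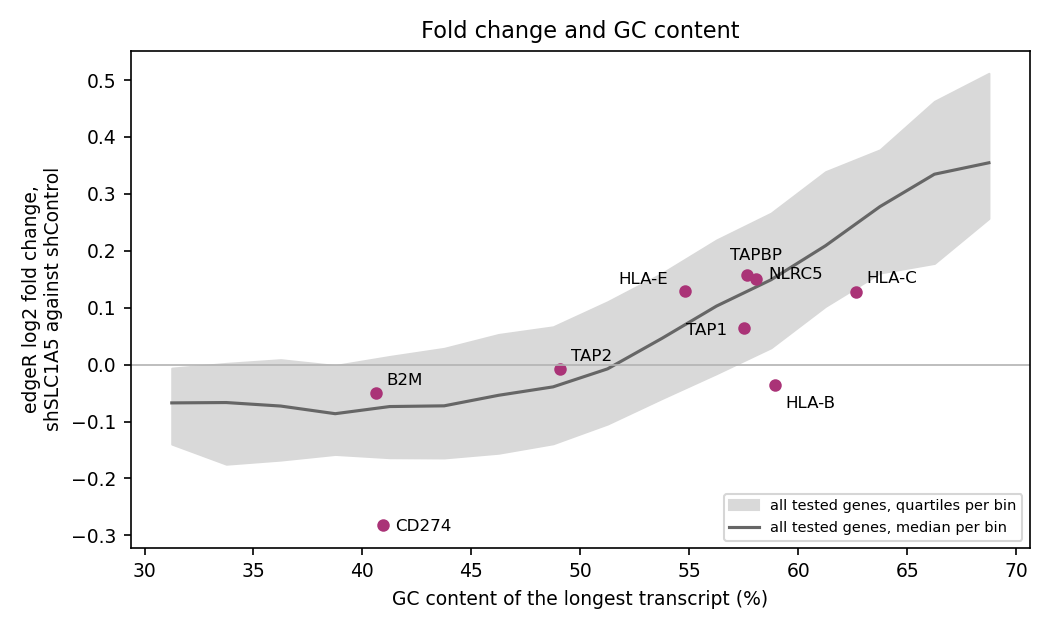
edgeR log2 fold change against the GC content of the longest transcript, with medians and quartiles of tested genes in bins of 2.5 percentage points and the 9 genes as named points. Bin medians go from -0.07 at 40% to 42.5% GC to 0.28 at 62.5% to 65% GC. B2M, TAPBP and NLRC5 lie near the median of their bins. HLA-E, TAP1 and TAP2 lie between the quartiles of theirs, and HLA-B, HLA-C and CD274 below the lower quartile.

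Transcripts of white blood cells, which themselves carry much class I, were present in the shSLC1A5 libraries and most of all in replicate 1. Over 19 leukocyte and red cell markers, leaving out LAPTM5 and CORO1A, which every library expressed (a split made after seeing the values), summed FPKM was 0.553 to 0.893 in shControl and 80.9, 6.53 and 9.64 in shSLC1A5 replicates 1, 2 and 3. With both included, 21 markers summed to 56.4 to 58.8 FPKM in shControl and to 136.0, 61.5 and 62.9 FPKM in shSLC1A5. S100A8, a neutrophil and monocyte protein, had 2301 counts in replicate 1 against 17 and 4 in the other shSLC1A5 libraries and 0, 5 and 4 in shControl. IGHM, the B cell heavy chain, had 729, 378 and 688 counts in shSLC1A5 and 0 in each shControl library. PTPRC (CD45), the general leukocyte marker, had 369, 20 and 19 counts in shSLC1A5 and 0, 0 and 10 in shControl, and CD3E and MPO had 0 in all 6.

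Replicate 1 was not high for class I as a whole. It was the highest of the 3 shSLC1A5 libraries for TAP1, 2.85% above the mean of the others, and for NLRC5, 5.20% above it, and for none of the other 7. Without it, HLA-C, HLA-E and TAPBP were still called higher at 0.13, 0.12 and 0.14, and B2M and CD274 lower at -0.06 and -0.29. The 9 genes then gave 5 calls, beside 33.5% of all tested genes, 3 higher and 2 lower, beside 17.5% and 16.0%. Since replicates 2 and 3 also held IGHM, this fit does not remove every such read, and the part of these reads in the 9 genes was not tested.

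Genes that work with the 9 were read from lists, which were also chosen with earlier results of these data known. The median log2 fold change over all tested genes was -0.0037. The counts stand beside 20.5% of tested genes higher and 18.7% lower, 11.6% and 14.7% with the offsets, and 16.4% and 15.6% (32.0% in all) with quantile normalization in limma. Other class I and class I-like heavy chains had 10 tested members, 1 higher and 3 lower (5 lower with quantile normalization), with a median of -0.08. FCGRT, the neonatal Fc receptor, which also pairs with B2M, rose from 3.34 ± 0.436 to 5.32 ± 0.374 FPKM (adjusted p = 0.000309 in edgeR). MICA, a stress ligand of the natural killer receptor NKG2D that needs no B2M, fell from 3.09 ± 0.353 to 2.22 ± 0.187 FPKM (adjusted p = 0.00642), and its relative MICB fell from 11.04 ± 0.0931 to 9.86 ± 0.0923 FPKM (adjusted p = 0.0126). These 3 calls held with the offsets. ULBP1, another NKG2D ligand, fell from 1.25 ± 0.287 to 0.805 ± 0.149 FPKM (adjusted p = 0.0328), but not with the offsets (adjusted p = 0.0699). Leaving out shControl replicate 3 also ended its call (adjusted p = 0.0517), as did leaving out shSLC1A5 replicate 2 (0.0615) and shSLC1A5 replicate 3 (0.110).

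Of 12 chaperones and peptidases of peptide loading tested, 8 were lower and 3 higher in edgeR, with a median of -0.12, and with the offsets 6 and 2. With quantile normalization in limma only 1 was lower and 3 higher, with a median of -0.08. CANX (calnexin), which folds new heavy chains, fell from 276.0 ± 1.91 to 248.7 ± 2.70 FPKM (log2 fold change -0.16, adjusted p = 1.05e-05 in edgeR). CALR (calreticulin) fell from 287.4 ± 3.45 to 266.7 ± 4.95 FPKM and PDIA3, its partner in the loading complex, from 130.0 ± 1.60 to 120.0 ± 0.906 FPKM. ERAP2, which trims peptides to length, fell from 48.7 ± 0.569 to 43.4 ± 0.966 FPKM. All 4 also fell with the offsets, but CANX (adjusted p = 0.472), CALR (0.0626) and PDIA3 (0.0773) did not pass with quantile normalization. THOP1, a peptidase of the cytosol, was higher at 0.21 but lower at -0.07 (adjusted p = 0.243) with the offsets, and TAPBPL, a relative of tapasin, was higher at 0.16 but at 0.04 (adjusted p = 0.598) with them. TAPBPL also lost its call on leaving out any 1 of the 6 libraries (adjusted p = 0.0619 to 0.111). CALR and PDIA3 were chosen after their values were seen.

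Of 6 genes of the immunoproteasome and its activator, 1 was higher and 1 lower. PSMB10, a catalytic subunit, was higher, from 27.4 ± 1.95 to 33.2 ± 1.39 FPKM, and the assembly factor POMP lower, from 77.8 ± 5.04 to 68.4 ± 1.26 FPKM, and neither passed with the offsets (adjusted p = 0.183 and 0.106). PSMB9, another catalytic subunit, chosen after its values were seen, was at 19.9 ± 0.469 and 21.4 ± 0.650 FPKM and did not pass (adjusted p = 0.0918), but was called higher with the offsets (0.14, adjusted p = 0.0258). Among the constitutive catalytic subunits, PSMB7 fell from 105.8 ± 3.32 to 91.9 ± 2.33 FPKM, also with the offsets, and PSMB6 stood at 81.2 ± 2.99 and 81.1 ± 3.06 FPKM. The FPKM ratio of PSMB8, PSMB9 and PSMB10 to PSMB5, PSMB6 and PSMB7 went from 0.307 ± 0.0141 for shControl to 0.362 ± 0.0101 for shSLC1A5 (SD, n = 3; exact permutation p = 0.1, 0.15 adjusted over 3 ratios).

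Of 18 tested genes of interferon receptors and signalling, 4 were higher and 4 lower, shares near those of all tested genes, with a median of 0.04. With the offsets 1 was higher and 3 lower, and with quantile normalization 3 and 2. STAT2 fell from 11.98 ± 0.115 to 10.2 ± 0.413 FPKM and PTPN2, a phosphatase of this pathway, from 3.04 ± 0.0303 to 2.57 ± 0.0804 FPKM, both also with the offsets. TYK2 and IRF3 were higher at 0.25 and 0.22, but at 0.02 and 0.06 without passing with the offsets. Of genes chosen after their values were seen, IFNGR1, a chain of the interferon gamma receptor, rose from 13.3 ± 0.279 to 15.5 ± 0.355 FPKM, also with the offsets, and IRF1, which binds interferon elements of class I and PD-L1 genes, stood at 24.9 ± 0.266 and 25.3 ± 0.231 FPKM (adjusted p = 0.615; 0.196 with the offsets).

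Of 33 interferon-stimulated genes tested, 9 were higher and 11 lower, with a median of -0.05, and with the offsets 7 and 8. IFITM1 and IFITM2, membrane proteins that block virus entry, rose from 10.6 ± 0.721 to 18.4 ± 0.529 and from 13.1 ± 0.890 to 18.2 ± 0.475 FPKM, and IFI6 rose from 24.9 ± 0.924 to 31.6 ± 1.70 FPKM. IFIT2, which binds viral RNA, fell from 123.1 ± 0.673 to 95.3 ± 0.887 FPKM (log2 fold change -0.38, adjusted p = 5.74e-08 in edgeR). These 4 calls held with the offsets.

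**Figure D5:**
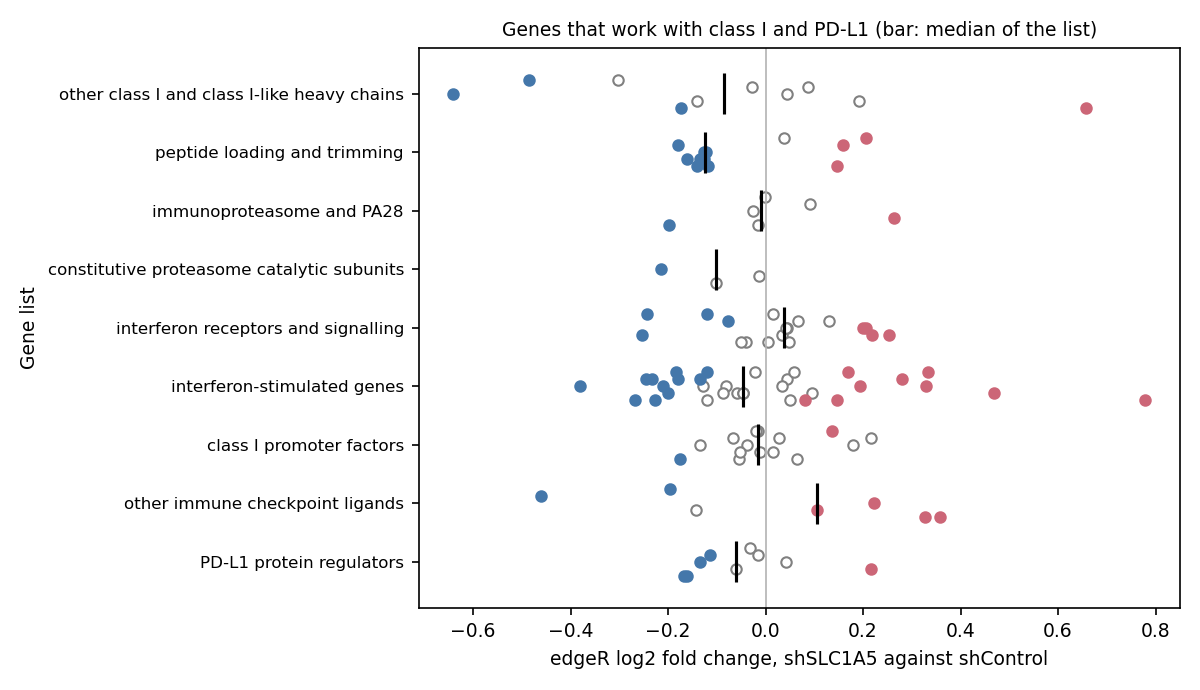
edgeR log2 fold changes of tested genes in each list, one point per gene, with the median of each list. The median of the peptide loading list is -0.12 and that of the other checkpoint ligands 0.11, and points lie on both sides of 0 in most lists.

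Among 15 factors that bind class I promoters or silence them, 1 was higher and 1 lower. RELA, an NF-kB subunit, was higher at 0.14 and ATF1, a CRE factor, lower at -0.18, and neither passed with the offsets (adjusted p = 0.779 and 0.317). RELA was also lost without shControl replicate 1 (adjusted p = 0.0604) or replicate 2 (0.0549), and ATF1 without shControl replicate 2 (0.0529), shControl replicate 3 (0.0786) or shSLC1A5 replicate 2 (0.113). With the offsets 2 other NF-kB subunits were called lower, NFKB2 (-0.30, adjusted p = 5.58e-05; -0.05, adjusted p = 0.235 without them) and RELB (-0.22, adjusted p = 0.0438; 0.07, adjusted p = 0.530 without them), both chosen after their values were seen. RFX5, the factor with which NLRC5 acts, stood at 14.7 ± 0.548 and 14.2 ± 0.472 FPKM (adjusted p = 0.354; 0.527 with the offsets) and was chosen after its values were seen.

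Of 7 tested checkpoint ligands other than PD-L1, 4 were higher and 2 lower, with a median of 0.11. PDCD1LG2 (PD-L2), the other ligand of PD-1 and a neighbour of CD274, was at 3.28, 3.18 and 3.11 FPKM in shControl and at 2.14, 2.92 and 1.96 FPKM in shSLC1A5. PDCD1LG2 was lower at -0.46 (adjusted p = 0.0349 in edgeR), but it did not pass with the offsets (-0.39, adjusted p = 0.0916) or without any 1 library other than shSLC1A5 replicate 2 (adjusted p = 0.0659 to 0.118). CD276 (B7-H3) rose from 21.6 ± 0.248 to 27.3 ± 0.644 FPKM, a log2 fold change of 0.33 (adjusted p = 5.35e-06), and 0.12 (adjusted p = 0.00494) with the offsets. NECTIN2 and TNFRSF14 were higher at 0.22 and 0.36 but did not pass with the offsets (adjusted p = 0.261 and 0.540).

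Genes that act on the PD-L1 protein had 9 tested members, 1 higher and 4 lower, with a median of -0.06. With the offsets 2 were higher and 1 lower, and with quantile normalization 1 and 2. STT3A, which attaches its sugars, fell from 47.5 ± 0.181 to 43.6 ± 0.685 FPKM, and CMTM4, which protects it from degradation, rose from 6.26 ± 0.179 to 7.33 ± 0.373 FPKM, both also with the offsets. STT3A did not pass with quantile normalization (adjusted p = 0.0552). GSK3B and BTRC, which mark PD-L1 for degradation, were lower at -0.17 and -0.16 but did not pass with the offsets (adjusted p = 0.0553 and 0.0591). CMTM6, the main protector of PD-L1, stood at 31.5 ± 1.24 and 32.7 ± 0.617 FPKM (log2 fold change 0.04, adjusted p = 0.382), but was called higher with the offsets (0.12, adjusted p = 0.0287). It was chosen after its values were seen.

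Of 10 class II genes, 3 reached the level for testing, and 1 was lower. CD74, the class II chaperone, fell from 5.60 ± 0.254 to 3.97 ± 0.184 FPKM (adjusted p = 8.29e-05 in edgeR; 1.88e-05 with the offsets), and HLA-DRA stood at 3.17 ± 0.325 and 3.36 ± 0.513 FPKM without passing. HLA-DQA1 had 0 counts in each shControl library and 72, 55 and 89 in shSLC1A5.

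The tested genes with the profile most like each called gene were taken by the root mean square difference of centred log2 CPM (counts scaled to library size) over the 6 libraries. They were DDX54 and PPP2R1A for HLA-C (0.00922 and 0.0107), TADA3 and HPS3 for HLA-E (0.0100 and 0.0118), and RYK and PHF3 for B2M (0.00342 and 0.00504). For TAPBP they were MYO1C and PACSIN3 (0.0163 and 0.0164), for NLRC5 ATAD3B and PHF1 (0.0140 and 0.0143), and for CD274 DST and PCNX4 (0.00975 and 0.0152). None of these 12 genes is in the lists above.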

How the data were processed

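Per the file headers, the authors deposited counts per gene and FPKM for each of the 6 libraries in 1 table. The submitters' processing notes name fastp, HISAT2 and StringTie. For the build, the strand setting and reads with several matches, the sources used here state nothing. GENCODE 29 (GRCh38) holds 34674 of the 35750 IDs, 99.9% at overlapping coordinates. 0 value columns were left unmapped. Counts were tested in edgeR 4.0.16 (R 4.3.3): TMM, group alone, quasi-likelihood F test, mean of at least 1 FPKM, Benjamini-Hochberg over 11841 genes, threshold 0.05. SE is the log2 fold change divided by the square root of F. Loess offsets (span 0.3) used the longest transcript's GC content and length in GENCODE 29, available for 99.7% of genes tested. Total counts were 59327548 to 70802167 per library, and the biological coefficient of variation was 0.0982. Ratios had exact permutation tests. The fit was tested on simulated data. It called 34.3% of genes given an absolute log2 fold change of 0.25, 67.2% at 0.5 and 90.9% at 1. Of unchanged genes it called 0.0945%. Changes smaller than 0.25 were not simulated, so its recovery of these is not known. Alternatives were DESeq2 1.42.0, limma 3.58.1 on log2(FPKM + 1) and log2(FPKM + 0.1), other scalings and filters, a replicate block and omission of each library. The members and lists were chosen with earlier results of these data known; of 173 list genes 171 were matched, 1 by its ID, and the others are not analysed here. Named list genes are up to 4 past the threshold per list by absolute log2 fold change, and the 2 of highest FPKM in lists with fewer than 2; any other choice is stated. Sequences come from RefSeq (GRCh38.p14).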

Additional observations from a re-analysis of the deposited data

How the results depend on the processing

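Over 18 alternatives, HLA-C passed the threshold in all, TAP2 in 0 and TAP1 in 1 (a mean of at least 5 FPKM, adjusted p = 0.0373). SLC1A5 was lower in all 18, at -0.14 to -0.13 on leaving out 1 library and -0.34 with the GC and length offsets. Those offsets, the offsets with the replicate block, and the offsets without shSLC1A5 replicate 1 gave log2 fold changes of -0.0893, -0.0896 and -0.0830 for HLA-C, 0.0281, 0.0281 and 0.0231 for B2M, -0.0129, -0.0135 and -0.0435 for NLRC5, -0.0682, -0.0683 and -0.0809 for THOP1, and -0.0448, -0.0449 and -0.0412 for S100A6. Each of the 3 left 0 of the 9 genes higher, against 4. RELB was -0.224 with the offsets, and B2M was 0.0625 with quantile normalization. The count of lower genes among the 9 was 1 with quantile normalization, 1 with limma on log2(FPKM + 1) or log2(FPKM + 0.1) and 0 with a mean of at least 5 FPKM, against 2, and leaving out 1 library gave 3 to 4 higher and 1 to 2 lower. The pathway lists together had 24 higher and 35 lower, 21 to 25 and 30 to 35 on leaving out 1 library, and 13 and 23 with the offsets without shSLC1A5 replicate 1, where 2488 genes were called in all against 4638. The ratio of heavy chains to B2M was 7.95% higher from counts, and 7.49% to 8.97% on leaving out 1 library. TAP1 to TAP2 was 2.61% to 7.82% higher and the proteasome ratio 15.9% to 21.0%. Of the list genes named, ULBP1, ATF1 and PDCD1LG2 also did not pass with no filter on low genes, these and GSK3B in limma on log2(FPKM + 0.1), ULBP1 in limma on log2(FPKM + 1), and POMP with quantile normalization. The cause of these shifts was not tested.

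Deviations of same-numbered libraries correlated at -0.15, 0.04 and -0.03, against -0.12 to 0.12 for differently numbered libraries. These values show no sign of pairing by replicate number. A pairing with little shared deviation would look the same, and the labels do not say. With the replicate block 4464 genes were called, and 4 of the 9 were higher and 2 lower, as without it. CD274 had the fewest counts of the 9 genes, 884 to 1058 per library.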
